A study of Mus musculus with 15 samples.

Results

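The fibroblast growth factor (FGF) receptors Fgfr1, Fgfr2 and Fgfr3, the ligand Fgf15 and 6 genes that FGF signalling switches on (Spry1, Spry2, Spry4, Dusp6, Etv4 and Etv5) were followed across sections of mouse embryos. These 10 members were chosen by name, out of 30534 features with a column in at least 1 transcript library, and each had a column in every library except Fgf15, which had none in 1. The sections were measured by barcoding in tissue: barcodes are delivered through microfluidic channels laid in one direction and then across it, and each crossing is a pixel whose transcripts are counted together. The 11 transcript libraries came from embryonic day 10 (E10), with 3 libraries at a pixel width of 50 µm, 1 at 25 µm and 2 at 10 µm, from E11, with 2 libraries at 25 µm and 2 at 10 µm, and from E12, with 1 library at 50 µm. Per the labels, all were thin sections of snap-frozen embryos, with no strain, sex, genotype, treatment or anatomical plane given. A 50 µm pixel covers many cells, and even a 10 µm pixel can cover parts of several, so that a value is that of a small region and not of a cell. The groups E10 25 µm and E12 50 µm were 1 library each, and nothing says that the other replicates came from separate embryos, so that p-values measure the spread between these sections.

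In FGF signalling, a secreted ligand brings together receptor tyrosine kinases at the cell surface, and the adaptor Frs2 links them to the Ras and MAP kinase cascade. Cells that receive the signal transcribe the ETS factors Etv4 and Etv5, which carry the response, and inhibitors that limit it: the Sprouty proteins Spry1, Spry2 and Spry4, which act between receptor and kinase cascade, and Dusp6, a phosphatase that removes the activating phosphates of ERK. Transcripts of these targets are therefore often read as a sign of where FGF signalling is active, while receptor transcripts show which cells could respond. In the embryo, FGF8 from the midbrain-hindbrain border, the limb ridge and the tail is among the best-known sources, Fgf15 is made in the neural tube, Fgfr2 serves epithelia and skeletal precursors, and Fgfr3 marks the ventricular zone of the nervous system before it acts in cartilage.

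Promoters of 6 of the 10 members were found in RefSeq's table for GRCm38.p6. The 250 bases before the start of Dusp6 and before 1 of the starts of Etv5 are shown because these targets had the most similar distribution in the sections (below). Capitals mark GGAAG, the core motif bound by ETS factors such as Etv4 and Etv5, and its reverse complement CTTCC. Sequences run in the gene's own direction, from chr10:99262981-99263230 (plus strand) for Dusp6 and chr16:22438369-22438618 (minus strand) for Etv5.
Dusp6: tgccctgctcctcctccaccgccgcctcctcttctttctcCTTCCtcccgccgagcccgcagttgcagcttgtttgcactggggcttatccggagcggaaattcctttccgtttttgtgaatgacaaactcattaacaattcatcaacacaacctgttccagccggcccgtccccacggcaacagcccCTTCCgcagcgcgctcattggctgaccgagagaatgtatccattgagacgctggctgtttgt
Etv5: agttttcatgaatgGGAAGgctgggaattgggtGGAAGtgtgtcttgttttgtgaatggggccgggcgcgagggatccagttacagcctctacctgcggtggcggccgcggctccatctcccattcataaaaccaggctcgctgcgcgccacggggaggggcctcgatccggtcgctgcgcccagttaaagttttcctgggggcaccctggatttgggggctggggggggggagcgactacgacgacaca
Each held 2 matches, and 29.4% of the 32851 promoters in the table held at least 2 in the same window, while 64.1% held at least 1. Of the 8 member promoters found, 5 held at least 1. The window before the other start of Etv5, which overlaps an annotated exon, held 0, as did those of Spry1 and Spry2. A match to so short a motif is therefore a description of these letters and says nothing about binding.

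In the GENCODE M21 annotation (build GRCm38), Fgfr1 lies on chromosome 8 (25513654 to 25575718, plus strand), Fgfr3 on chromosome 5 (33721674 to 33737068, plus strand) and Fgf15 on chromosome 7 (144896531 to 144900953, plus strand). Fgfr2 lies on chromosome 7 (minus strand), where its gene model runs from 130162451 to 133123350 across 69 other annotated genes, 36 of them on its own strand. Whether reads of these genes entered its counts was not tested. Spry1 lies on chromosome 3 (37639947 to 37644598, plus strand), Spry2 on chromosome 14 (105891947 to 105896819, minus strand) and Spry4 on chromosome 18 (38586247 to 38601415, minus strand). Dusp6 lies on chromosome 10 (99263231 to 99267489, plus strand), Etv4 on chromosome 11 (101769742 to 101785371, minus strand) and Etv5 on chromosome 16 (22381309 to 22439719, minus strand). Fgfr1, Fgfr3, Fgf15, Spry1 and Spry4 are each overlapped by 1 or 2 annotated genes on the opposite strand. Whether strand was used in counting is not given in the sources used here, and reads of such partners cannot then be told apart.

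Tissue pixels numbered 829 to 2271 per library and held 1563489 to 11998765 counts, with a median of 844 to 11332 counts per pixel. Levels are given as CPM, the counts of a gene per 1000000 counts over the tissue pixels of a library. Detection was sparse: Fgfr1 had a count in 6.89% of pixels in E11 10 µm replicate 2 and in 63.6% in E10 50 µm replicate 3, while Etv4 had one in 0.17% to 3.84%. The share of each tissue differed between sections: in E11 10 µm replicate 2 the neural progenitor markers summed to 145 CPM against a median of 1111 over the 11 libraries, and the heart muscle markers to 4327 CPM, the highest of the 11. The part of such differences in the comparisons between libraries below was not tested. In sums over many cells, fewer cells of a type and less RNA per cell cannot be told apart.

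The ligand Fgf15 was high at E10 and low afterwards. It stood at 18.2, 13.9 and 15.1 CPM in E10 50 µm, at 17.9 CPM in E10 25 µm and at 15.3 and 9.62 CPM in E10 10 µm. At E11 it held 4.93 and 4.04 CPM at 25 µm and 5.84 CPM in 10 µm replicate 1. E11 10 µm replicate 2 had no column for it, which was taken as 0 and allows up to 1.09 CPM (3 counts), and E12 held 1.85 CPM. Every E10 library therefore lay above every E11 library and above E12, the lowest level after the empty library being at E12.

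Spry1, the Sprouty inhibitor best known from kidney branching, showed the same separation. Its 6 E10 libraries held 12.4, 5.72 and 14.8 CPM at 50 µm, 12.2 CPM at 25 µm, and 10.1 and 7.74 CPM at 10 µm. At E11 it held 2.76 and 3.26 CPM at 25 µm and 3.89 and 3.65 CPM at 10 µm, so that the stages did not overlap, while E12 at 6.31 CPM fell among the E10 libraries. Fgf15 and Spry1 were the 2 of 10 members whose E11 libraries all lay below all E10 libraries, against 5.43% of the 18233 genes tested. No member had all E11 libraries above all E10 libraries, against 3.41% of genes.

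The other targets did not separate the stages. Spry2 ranged from 3.16 CPM in E11 25 µm replicate 1 to 17.3 CPM in E10 25 µm. Dusp6 ranged from 28.3 to 63.8 CPM, and both ends of that range were E10 10 µm libraries. Etv4, an ETS factor, held 1.32 to 3.50 CPM in the 6 E10 libraries, 8.29 and 4.17 CPM in E11 25 µm, 14.4 and 2.92 CPM in E11 10 µm and 6.15 CPM at E12, so that only E11 10 µm replicate 2 fell within the E10 range. Its relative Etv5 was highest in E11 10 µm replicate 1, at 49.8 CPM, and at E12, at 34.8 CPM, with 8.49 to 26.0 CPM elsewhere.

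Spry4, another Sprouty inhibitor, was highest at E12. It held 2.56, 2.86 and 2.07 CPM in E10 50 µm and 19.7 CPM (128 counts) at E12, a level above all other libraries, of which the next was E11 10 µm replicate 1 at 10.1 CPM. E11 10 µm replicate 1 had the highest level of Etv4 and Etv5 and the second highest of Spry4, and also the highest level of the epithelium markers, at 337 CPM against a median of 115. The part of the epithelium in these levels was not tested.

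Among the receptors, Fgfr1 varied least. It held 99.6, 93.1 and 113 CPM in E10 50 µm, 163 CPM in E10 25 µm, 107 and 106 CPM in E10 10 µm, 118 and 121 CPM in E11 25 µm, 84.4 and 58.3 CPM in E11 10 µm and 136 CPM at E12. Fgfr2 stood at 36.3 to 58.5 CPM in 9 libraries and lower in E11 10 µm, at 30.3 and 16.4 CPM. Fgfr3 varied most, from 10.6 CPM in E11 10 µm replicate 2 and 15.8 CPM at E12 to 99.9 CPM in E10 50 µm replicate 3. Replicates of 1 group spanned much of that range, though not all of it: E10 10 µm held 18.0 and 84.7 CPM. Its groups are therefore not ranked by level, and E10 25 µm and E12, with 1 library each, have no spread of their own.

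**Figure D1:**
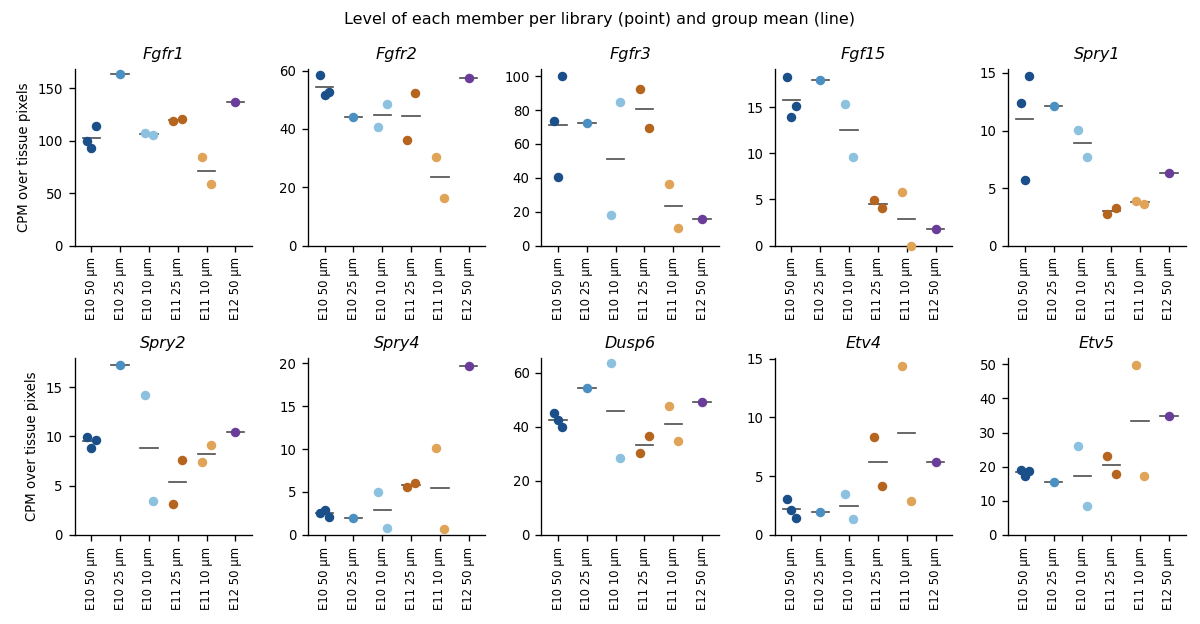
Level of each member in CPM over tissue pixels (vertical axis, linear from 0) by group (horizontal axis); points are libraries and lines are group means. For Fgf15 and Spry1 every E10 point lies above every E11 point, while for Fgfr3 the 2 E10 10 µm libraries lie at 18.0 and 84.7 CPM.

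Summed counts were compared between groups with edgeR's quasi-likelihood test over all 11 libraries. None of the 10 members had an edgeR adjusted p under 0.05 in any of 6 comparisons of stage or width, in which 0.11% to 3.6% of the 18233 genes did. For E11 against E10 over both widths 3.6% of genes were called, 3 members had an unadjusted p under 0.05 and 2 members were called by DESeq2. At 10 µm alone 3.33% of genes were called (5 members at unadjusted p under 0.05, 0 by DESeq2), and at 25 µm alone 0.455% (1 and 0 members). E12 against E10 at 50 µm gave 2.14% (2 and 1 members), E10 10 µm against 50 µm 0.11% (0 and 0 members) and E11 10 µm against 25 µm 2.07% (3 and 0 members). The change from E10 to E11 at 10 µm less that at 25 µm, tested after the values were seen and not by DESeq2, was called for 0.137% of genes and 0 members, with 1 at an unadjusted p under 0.05.

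The members nearest to the threshold were those that the levels show. Over both widths Spry1 was lower at E11 by a log2 fold change of -1.53 ± 0.41 (standard error, edgeR adjusted p = 0.057) and Fgf15 by -1.97 ± 0.60 (edgeR adjusted p = 0.0881). DESeq2 gave -1.50 and -1.94 for them and called both (DESeq2 adjusted p = 0.0407 and 0.0114), as did edgeR with no filter on low counts (edgeR adjusted p = 0.0143 for Spry1 and 0.000135 for Fgf15). Leaving out E11 10 µm replicate 1 also brought Fgf15 past the threshold (edgeR adjusted p = 0.000742), where the remaining E11 10 µm library is the one with no count of it. The log2 fold change was then -5.64, a value set by the prior count, and it was -1.47 without E11 10 µm replicate 2 (edgeR adjusted p = 0.0615). Leaving out E10 50 µm replicate 2 brought Spry1 past it (edgeR adjusted p = 0.0483). At E12, Spry4 was higher by 2.93 ± 0.87 (edgeR adjusted p = 0.121) and Fgf15 lower by -3.12 ± 1.01 (edgeR adjusted p = 0.161), with 1 library against 3 and its spread taken from the other groups. Both passed without either E11 10 µm library (edgeR adjusted p = 0.0151 and 0.014 for Spry4, 0.00573 and 0.00557 for Fgf15), and Spry4 lies at 19.7 CPM against 2.50 ± 0.40 (SD, n = 3) at E10. The median log2 fold change of the 10 members was -0.39 for E11 against E10 over both widths, against 0.05 for all genes, and 0.13 for E12, against -0.04.

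Of 49 other genes of the pathway, 40 passed the filter. Spred2, an inhibitor of Raf activation related to Sprouty, was lower at E11 over both widths (log2 fold change -1.30 ± 0.28, edgeR adjusted p = 0.0272) and was the 1 pathway gene called there. At 10 µm alone the 1 gene called was Fgf10, a mesenchymal ligand of Fgfr2, which was higher at E11 (edgeR adjusted p = 0.0343). At E12 the 2 genes called were Fgf7, another mesenchymal ligand of Fgfr2 (edgeR adjusted p = 0.00808), and Fgf2 (edgeR adjusted p = 0.0206), both higher than at E10. No pathway gene was called at 25 µm or in the comparisons of width.

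Within sections, the receptors and targets were compared between tissues. Pixels were ranked by the share of their counts, and those of the 8 pixels around them, that came from a list of tissue markers, and the top 10% were set against the remaining tissue pixels of the same library. Pixels with a share of 0 were never taken as marker-high, so that a list with few counts could have fewer than 10%. A library entered when the list was spatially structured in it (Moran's I, the likeness of neighbouring pixels, of at least 0.05), which left 7 to 11 libraries per list. All 10 members passed the filter for all 8 lists. Of the 80 results 18 were called at an edgeR adjusted p under 0.05. The marker-high pixels were higher in 4 of these and lower in 14, which fell on 7 members. Of all genes tested, 0.235% to 12.9% were called higher, depending on the list, and 0.725% to 15.2% lower. Spry2, Spry4 and Etv4 were called for no list.

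**Figure D2:**
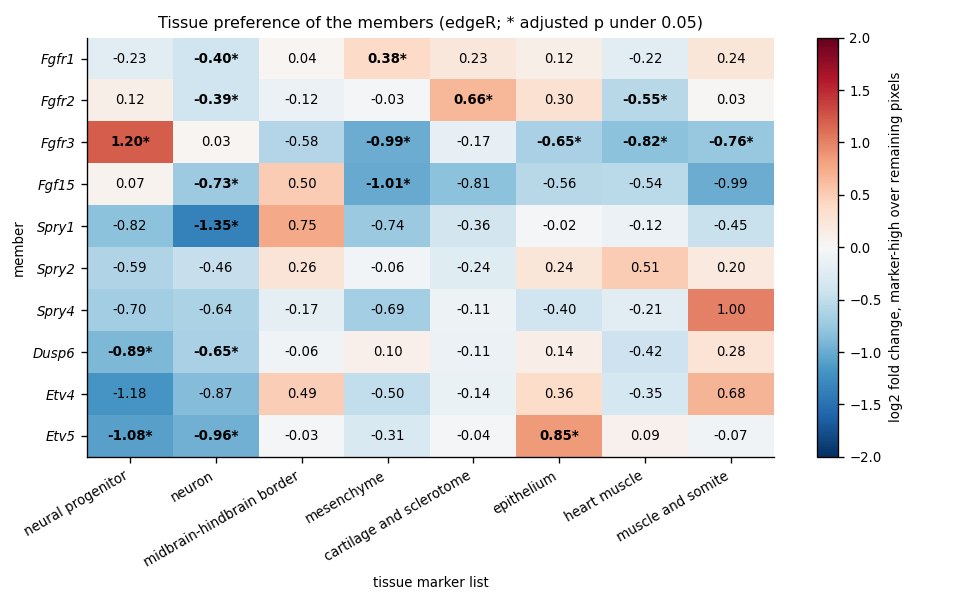
Log2 fold change (colour and printed value) of each member (rows) in marker-high over remaining pixels for 8 tissue lists (columns), from edgeR with the library as a block; asterisks mark an adjusted p under 0.05. Fgfr3 stands at 1.20 in neural progenitor pixels, where Dusp6 and Etv5 stand at -0.89 and -1.08.

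Neural progenitor pixels were chosen by Sox1, Sox2, Sox3, Pax6, Hes5, Nes, Fabp7 and Msi1 in 10 libraries. Fgfr3 was 2.30-fold higher there (log2 fold change 1.20 ± 0.25, edgeR adjusted p = 0.0112), with 27.3, 116 and 203 CPM as the lowest, median and highest library against 13.1, 52.9 and 89.7 CPM in the remaining pixels. It was higher in 9 of 10 libraries, the exception being E10 50 µm replicate 2 with 27.3 against 41.9 CPM. The largest ratio was in E10 10 µm replicate 1, with 64.6 against 13.1 CPM. It was the 1 member called higher, against 3.75% of 13359 genes.

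Targets went the other way in the same pixels. Dusp6 was lower in 10 of 10 libraries (log2 fold change -0.89 ± 0.13, edgeR adjusted p = 0.000141), with 13.3, 22.6 and 47.2 CPM as the lowest, median and highest against 30.3, 46.7 and 65.5 CPM. Etv5 was lower in 9 of 10 (-1.08 ± 0.20, edgeR adjusted p = 0.00133), with a median of 10.4 against 20.1 CPM, and only E10 10 µm replicate 2, with 7 counts, went against it. These were the 2 of 10 members called lower, against 7.55% of genes. The other targets had negative values that did not pass: -0.82 for Spry1 (edgeR adjusted p = 0.0589), -0.59 for Spry2, -0.70 for Spry4 and -1.18 for Etv4. The median over the members was -0.64, against -0.03 for all genes.

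The median count per progenitor pixel was 0.87 to 2.01 times that of the remaining pixels, and its part in these results was not tested. Nes was the most abundant marker of the list in 10 of 10 libraries. Without it, Fgfr3 stood at 1.37, Dusp6 at -0.85 and Etv5 at -1.04, all called. Of the 17 alternatives for each, 1 ended a call: with the top 5% of pixels Fgfr3 had an edgeR adjusted p of 0.0688. Among the pathway genes Dusp9 (-1.42 ± 0.18), another ERK phosphatase, Dusp7 (-0.77 ± 0.15), the membrane protein Flrt2 (-0.81 ± 0.21) and the adaptor Frs2 (-0.51 ± 0.16) were lower in progenitor pixels, and Dusp4 (0.89 ± 0.25) and Nras (0.17 ± 0.05) higher, which made 2 higher and 4 lower of 33 tested.

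Neuron pixels, chosen by Tubb3, Dcx, Stmn2, Elavl3, Elavl4, Nefl, Ina and Snap25 in 10 libraries, held less of Fgfr1, Fgfr2, Fgf15, Spry1, Dusp6 and Etv5. Of the 10 members 6 were called lower, against 15.2% of 13508 genes, and 0 higher, against 12.9%. Spry1 had the largest decrease (log2 fold change -1.35 ± 0.32, edgeR adjusted p = 0.00173), with a median of 2.71 against 7.32 CPM and higher values in 1 of 10 libraries. Etv5 (-0.96 ± 0.28, edgeR adjusted p = 0.0168) and Dusp6 (-0.65 ± 0.14, edgeR adjusted p = 0.000905) were lower in 8 of 10 libraries each. Fgfr1 was lower in 9 of 10 (-0.40 ± 0.08, edgeR adjusted p = 0.000407), with 62.4, 88.5 and 122 CPM as the lowest, median and highest against 84.4, 113 and 169 CPM. The calls of Dusp6, Etv5 and Fgfr1 held in 17 of 17 alternatives, and that of Spry1 ended with the top 20% of pixels (-0.53).

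Fgfr2 (-0.39 ± 0.14, edgeR adjusted p = 0.0309) and Fgf15 (-0.73 ± 0.27, edgeR adjusted p = 0.0371) were called with less margin in neuron pixels. The call of Fgfr2 ended without E10 50 µm replicate 1, 2 or 3, E10 10 µm replicate 2 or E11 25 µm replicate 2, with log2 fold changes of -0.38 to -0.31. It also ended with DESeq2 (-0.35), the top 20% of pixels (-0.21), all 11 libraries (-0.35) and without the most abundant marker (-0.34), so that it held in 8 of 17 alternatives. That of Fgf15 ended without E10 50 µm replicate 1 or 2, the E10 25 µm library, E10 10 µm replicate 1 or 2, or E11 25 µm replicate 2, with -0.77 to -0.63. It also ended with DESeq2 (-0.75), the top 5% of pixels (-0.73) and each pixel ranked alone (-0.27), and likewise held in 8 of 17. Fgfr3 stood at 0.03, and Spry2, Spry4 and Etv4 did not pass. Progenitor and neuron pixels shared 25.4% of their number. Other lists shared pixels too: cartilage and sclerotome shared 23.5% with muscle and somite, 22.8% with epithelium and 20.6% with mesenchyme. The lowest share was 1.52%, for neural progenitor and epithelium, so that the lists do not all mark separate pixels. Of 34 pathway genes 2 were higher and 8 lower in neuron pixels: Dusp4 (1.71 ± 0.22) and Grb2 (0.33 ± 0.09) rose, and the largest decreases were in Fgf17 (-1.26 ± 0.44), Dusp9 (-0.99 ± 0.19), the FGF antagonist Il17rd (-0.84 ± 0.15) and Flrt3 (-0.68 ± 0.11).

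The midbrain-hindbrain border list (En1, En2, Pax2, Pax5, Pax8 and Wnt1) was thin, with 7.29 to 93.7 CPM in the libraries that entered, and some of its genes also mark kidney, spinal cord and ear. Its marker-high pixels numbered 1008 over 8 libraries, where mesenchyme had 1084 in the same libraries. In E11 10 µm replicate 2 they were at most 170 of 1930 tissue pixels, under 10%, because no other pixel had a count of the list nearby. Over 8 libraries 0 of 10 members were called by edgeR, with 2 at an unadjusted p under 0.05 and 0 by DESeq2, against 0.235% of 14485 genes higher and 0.725% lower. Spry1 had the largest value (0.75 ± 0.30, edgeR adjusted p = 0.284). In E10 50 µm, Spry1 held 33.7 against 10.3 CPM in replicate 1, 29.6 against 12.4 CPM in replicate 3 and 5.39 against 5.76 CPM in replicate 2. Etv5 held 29.7 against 18.0 CPM, 41.4 against 15.1 CPM and 14.0 against 17.6 CPM in the same order. Both targets were thus higher at these pixels in 2 of these 3 E10 sections and lower in replicate 2. At E11 Etv5 was lower in all 4 libraries, with a mean log2 ratio of -0.79 (-1.16 to -0.45) against 0.64 (-0.28 to 1.46) at E10. That difference of -1.43 did not pass (exact permutation p = 0.0571, adjusted 0.296), and pixel width differed between the stages as well. With each pixel ranked on its own counts, Spry1 was called (1.27, edgeR adjusted p = 0.000377), as was Fgfr3, lower (-0.57, edgeR adjusted p = 0.00832), and Fgfr3 was also called lower without the E12 library (-0.72). Of 35 pathway genes Fgf18, a ligand of the border region, was the 1 called, and it was higher (1.37 ± 0.28, edgeR adjusted p = 0.00732).

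Mesenchyme pixels (Col1a1, Col1a2, Col3a1, Col5a1, Pdgfra, Prrx1, Twist1 and Twist2, 11 libraries) held more Fgfr1 and less Fgfr3. Fgfr3 was lower in 11 of 11 libraries (log2 fold change -0.99 ± 0.16, edgeR adjusted p = 9.26e-06), with a median of 31.9 against 71.4 CPM, and the call held in 18 of 18 alternatives. Fgfr1 was higher in 9 of 11 (0.38 ± 0.10, edgeR adjusted p = 0.00561), with a median of 130.0 against 106 CPM, and lost its call without E11 25 µm replicate 2 (0.28), with no filter on low counts (0.26) and with the top 5% of pixels (0.36). Fgf15 was lower (-1.01 ± 0.34, edgeR adjusted p = 0.0361) on 26 counts in mesenchyme pixels, and its call ended without E10 50 µm replicate 1 or 2, E10 10 µm replicate 1 or 2, or E11 25 µm replicate 1 (-1.03 to -0.91). It also ended with DESeq2 (-0.90), the top 5% of pixels (-1.21) and each pixel ranked alone (-0.57). This gave 1 of 10 members higher and 2 lower, against 7.01% and 7.44% of 13235 genes. Of 33 pathway genes 4 were higher, Fgf2 (1.41 ± 0.46), Flrt2 (1.15 ± 0.13), Dusp7 (0.58 ± 0.16) and the adaptor Gab1 (0.53 ± 0.17), and 0 lower.

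In cartilage and sclerotome pixels (Col2a1, Sox9, Col9a1, Col9a3, Pax1, Pax9, Matn1, Acan and Cnmd, 11 libraries) Fgfr2 was the 1 member called. It was higher in 10 of 11 libraries (0.66 ± 0.14, edgeR adjusted p = 0.00119), with 13.5, 59.2 and 141 CPM as the lowest, median and highest against 16.6, 47.0 and 56.5 CPM, and the call held in 18 of 18 alternatives. It was largest in E11 25 µm replicate 2 and at E12, the ratios being 1.59 and 1.52 on the log2 scale. The background was 3.39% of 13140 genes higher and 4.94% lower, with 0 members lower. Fgfr3, known for its later role in growth plates, stood at -0.17 with log2 ratios from -3.64 to 2.09 between libraries, the highest being E12. Fgfrl1 (0.64 ± 0.17), a receptor without a kinase domain, and Flrt2 (0.91 ± 0.16) were the 2 pathway genes called of 33, both higher.

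Epithelium pixels (Epcam, Cdh1, Krt8, Krt18, Krt5, Krt14, Cldn6, Cldn7, Esrp1 and Trp63, 11 libraries) held more Etv5 and less Fgfr3. Etv5 was higher in 9 of 11 libraries (0.85 ± 0.21, edgeR adjusted p = 0.0235), with a median of 34.7 against 17.0 CPM. Its call ended without E10 50 µm replicate 1 or 2, E10 10 µm replicate 2 or E11 25 µm replicate 1, with values of 0.71 to 0.87. Fgfr3 was lower in 10 of 11 (-0.65 ± 0.15, edgeR adjusted p = 0.00829), a call that ended with DESeq2 (-0.62, DESeq2 adjusted p = 0.0933) and with the top 5% of pixels (-0.63, edgeR adjusted p = 0.179). Fgfr2, the receptor whose epithelial form receives Fgf7 and Fgf10, stood at 0.30 and did not pass, and Esrp1, a splicing factor that makes that form, is itself a marker of the list. These made 1 of 10 members higher and 1 lower, against 2.01% and 3.23% of 13757 genes. Of 33 pathway genes the ligands Fgf9 (1.45 ± 0.24) and Fgf10 (1.24 ± 0.33) were higher and Dusp4 (-1.07 ± 0.30) lower.

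Heart muscle pixels (Myh6, Myh7, Myl2, Myl3, Myl7, Nppa, Tnnt2 and Tnni3, 10 libraries) held less of both Fgfr2 and Fgfr3. Fgfr3 was lower in 9 of 10 libraries (-0.82 ± 0.22, edgeR adjusted p = 0.015) and lost its call without E10 50 µm replicate 2 (-0.74). Fgfr2 was lower in 9 of 10 (-0.55 ± 0.16, edgeR adjusted p = 0.025), with a median of 27.0 against 47.6 CPM, and lost it without E11 25 µm replicate 1 or 2 or the E12 library (-0.52 to -0.45), with the top 20% of pixels (-0.32) and with each pixel ranked alone (-0.46). DESeq2 called neither. That made 2 of 10 members lower, against 6.84% of 14161 genes, and 0 higher, against 6.28%. Of 35 pathway genes 0 were higher, and those lower included Fgf17 (edgeR adjusted p = 0.00378), Il17rd (-0.89 ± 0.23) and the exchange factor Sos1 (-0.47 ± 0.13).

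In muscle and somite pixels (Myod1, Myf5, Myog, Tcf15, Meox1, Meox2, Chrna1 and Mymk), which were structured in 7 libraries, Fgfr3 was the 1 member called lower (-0.76 ± 0.16, edgeR adjusted p = 0.00384), in 7 of 7 libraries and against 1.89% of 13915 genes. The call was lost with the top 5% or 20% of pixels, with each pixel alone and without the most abundant marker. No member was called higher, against 1.94%. Spry4 had a value of 1.00 ± 0.38 that did not pass (edgeR adjusted p = 0.155). It held 13.9 against 4.60 CPM in E11 25 µm replicate 1, 15.1 against 5.13 CPM in replicate 2 and 51.0 against 16.3 CPM at E12, and was higher in these libraries. The E11 25 µm values rest on few counts, with 28 in replicate 1 and 46 in replicate 2 over all tissue pixels. The 3 E10 50 µm libraries held 1 or 2 counts each in the marker-high pixels, and E11 10 µm replicate 2 held 2 over all its tissue pixels. Flrt2 was the 1 pathway gene called of 35, and it was higher (0.67 ± 0.13).

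The preference of the 3 receptors was compared directly within libraries, as the difference between their log2 ratios, by a two-sided exact sign-flip permutation test with Benjamini-Hochberg adjustment over 24 tests. Fgfr3 differed from both others in neural progenitor pixels: its mean ratio of 1.24 exceeded that of Fgfr1 (-0.19) by 1.44 ± 0.80 (SD, n = 10 libraries, exact permutation p = 0.00391, adjusted 0.0234) and that of Fgfr2 (0.09) by 1.15 ± 0.87 (exact permutation p = 0.00391, adjusted 0.0234), each in 9 of 10 libraries. In mesenchyme pixels the order turned. Fgfr1 exceeded Fgfr3 by 1.46 ± 0.91 and Fgfr2 exceeded it by 1.06 ± 0.78 (n = 11 libraries, exact permutation p = 0.00195 and 0.00293, adjusted 0.0234 for each), in 10 of 11 libraries. These 4 of 24 differences passed.

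Fgfr1 and Fgfr2 were not told apart for any list: the nearest was mesenchyme, with a difference of 0.39 ± 0.48 in favour of Fgfr1 (n = 11, exact permutation p = 0.0127, adjusted 0.0536). In muscle and somite pixels Fgfr3 lay below Fgfr1 by 1.12 ± 0.61 and below Fgfr2 by 0.91 ± 0.37 in 7 of 7 libraries, which is the smallest p that 7 libraries allow (exact permutation p = 0.0156, adjusted 0.0536). The 4 differences passed in each of the 11 omissions of a library, and with the top 20% of pixels 9 of 24 differences passed.

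**Figure D3:**
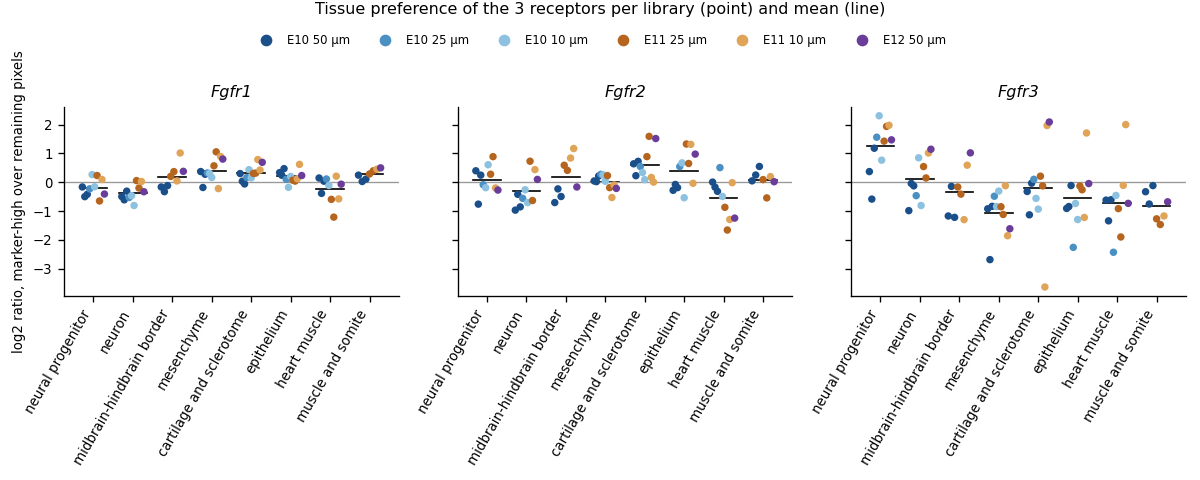
Log2 ratio of marker-high over remaining pixels (vertical axis) for Fgfr1, Fgfr2 and Fgfr3 (panels) and 8 tissue lists (horizontal axis); points are libraries coloured by group and lines are means. Fgfr3 points lie above 0 in 9 of 10 libraries for neural progenitors and below 0 in 11 of 11 for mesenchyme.

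How the members lay in the sections without reference to marker lists was described by their spatial structure. In E10 50 µm Moran's I was highest for Fgfr3 of the 10 members, at 0.23, 0.26 and 0.24, with 0.21, 0.17 and 0.12 for Dusp6. In E11 25 µm it was 0.16 and 0.27 for Fgfr3 and 0.17 and 0.16 for Etv5, and at E12 0.05 for Fgfr3 and 0.11 for Etv5. Spry1 (0.12, 0.12 and 0.13) and Fgf15 (0.11, 0.12 and 0.12) were structured in E10 50 µm. Etv4 and Spry2 were near 0 in all 11 libraries, at -0.018 to 0.045 and -0.012 to 0.025. The measure is not compared between pixel widths, whose depths differ.

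Likeness between genes was measured as Pearson's r over blocks of 5 by 5 pixels, on log2(CPM + 50), within each library and then averaged; blocks of a section share its depth and are not independent, so these are descriptions with no test. Only Fgfr1, Fgfr2, Fgfr3, Dusp6 and Etv5 had 100 counts in at least 6 libraries. Among the 8459 genes compared with Dusp6 the one most like it was Etv5 (mean r = 0.44, range 0.14 to 0.68 over 8 libraries), and among the 8269 compared with Etv5 the one most like it was Dusp6. The median r over all genes was 0.02 for each. The FGF antagonist Il17rd was the third for both (0.40 with Dusp6 and 0.38 with Etv5, 7 libraries each), and second were Cped1 for Dusp6 (0.41) and Wfdc2 for Etv5 (0.40). With blocks of 3 by 3 pixels this order did not hold: Dusp6 had 0.31 with Il17rd, 0.27 with Cped1 and 0.26 with Etv5, and Etv5 had 0.26 with both Wfdc2 and Dusp6.

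By this measure Fgfr2 and Fgfr3 were alike, and Fgfr1 lay apart from both. Fgfr2 was most like Fgfr3 (0.39, 0.08 to 0.65 over 8 libraries), followed by Adgrv1 (0.38) and the Wnt receptor Fzd10 (0.36). Fgfr3 was most like Adgrv1 (0.51), the creatine kinase Ckb (0.50) and Lfng (0.50), a modifier of Notch. Fgfr1 was most like Cped1 (0.30), Igsf10 (0.30) and Lrig3 (0.30), lay at 0.21 with Dusp6 and 0.13 with Etv5, and at -0.07 with Fgfr2 and -0.02 with Fgfr3. Fgfr3 was unlike the targets: its mean r was -0.24 with Dusp6 (-0.55 to 0.10 over 8 libraries) and -0.30 with Etv5 (-0.68 to 0.21 over 7). Etv5 stood at percentile 0.21 and Dusp6 at percentile 1.14 among the genes compared with Fgfr3, from the lowest r.

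The maps show the deepest section per pixel at E10 and at E11. In E10 50 µm replicate 1 the r over blocks was 0.68 for Dusp6 with Etv5, 0.65 for Fgfr2 with Fgfr3, -0.55 for Fgfr3 with Dusp6 and -0.68 for Fgfr3 with Etv5. For each of these pairs this section was the library furthest from 0. In the same section Spry1 had 0.54 with Dusp6 and 0.59 with Etv5, and -0.45 with Fgfr3, and Fgf15 had 0.38 with Spry1. E11 25 µm replicate 2 gave 0.45 for Dusp6 with Etv5, 0.58 for Fgfr2 with Fgfr3, -0.25 for Fgfr3 with Dusp6 and -0.24 for Fgfr3 with Etv5. Other sections differed: Fgfr3 with Dusp6 stood at 0.01 in both E10 10 µm libraries and at 0.10 at E12, where Fgfr3 with Etv5 stood at 0.21. Both pairs lay below 0 in the remaining libraries in which they were measured.

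**Figure D4:**
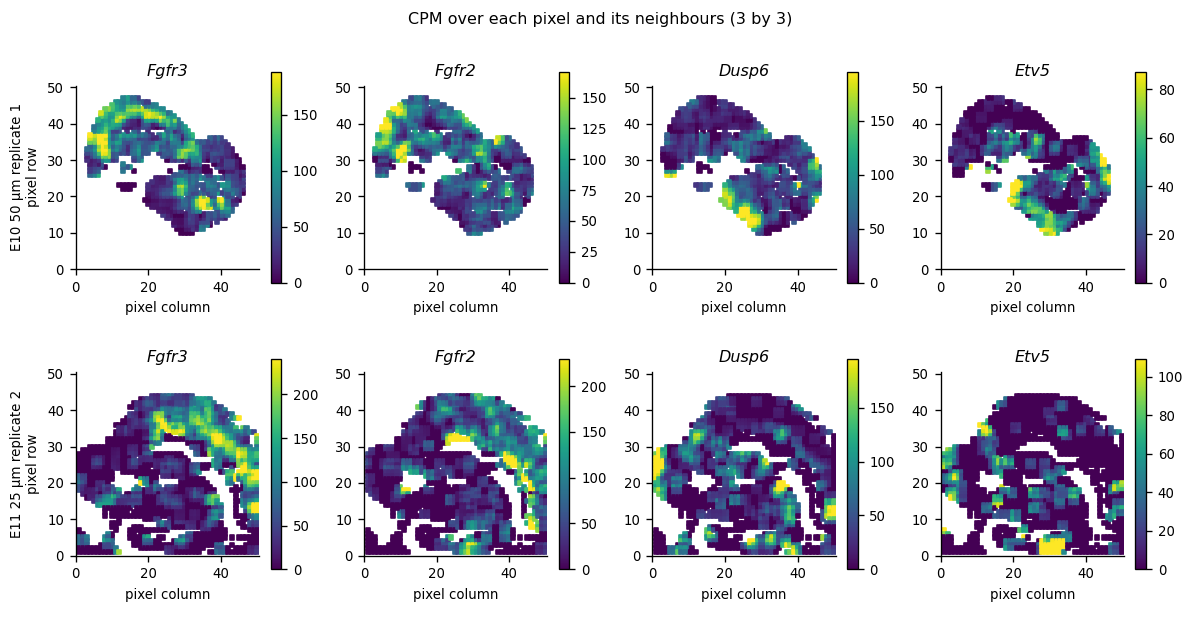
Maps of Fgfr3, Fgfr2, Dusp6 and Etv5 (columns) in E10 50 µm replicate 1 (top) and E11 25 µm replicate 2 (bottom); each square is a tissue pixel at its grid column and row, coloured by the CPM over that pixel and its neighbours (3 by 3), with a colour scale per map. At E10 Fgfr3 and Fgfr2 are bright in the upper part (rows above 30) and Dusp6 and Etv5 at the lower left edge; at E11 Fgfr3 and Fgfr2 follow the upper and right band, and Dusp6 and Etv5 are bright in small patches, mostly outside it.

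At the scale of single pixels, co-location was counted as the number of pixels holding both genes of a pair over the number expected. That number came from each gene's share of counts and each pixel's depth, and not from the pixels in which a gene was found. A gene whose counts gather in few pixels therefore tends to low ratios with any partner. For each of the 6 targets in each library the median ratio over all genes was taken, and the median of these values was 0.80 (0 to 1.03). It weighs sparse libraries like deep ones, while the ratios of pairs given next are pooled over libraries, so that they are not measured alike. The 15 pairs of targets together had a ratio of 1.01, and of 0.90 when pixels were joined in blocks of 2 by 2. Per library it was 0.95, 1.06 and 0.89 in E10 50 µm, 2.15 in E10 25 µm (12 observed against 5.59 expected), 1.02 and 0.97 in E10 10 µm, 1.24 and 1.25 in E11 25 µm, 1.21 and 1.32 in E11 10 µm and 1.06 at E12. It exceeded 1 in 8 of 11 libraries, and the E11 libraries lay above every E10 library but the 25 µm one. The E11 10 µm ratios rest on 49 observed against 40.3 expected in replicate 1 and on 11 against 8.33 in replicate 2. Depth per pixel differed between the libraries, and its part in this order was not tested.

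Most target pairs hold an ETS factor, as did the 3 with the highest ratios among pairs with over 40 expected pixels. Etv4 and Etv5 shared 62 pixels against 45.6 expected (1.36, above 1 in 7 of 8 libraries with at least 1 pixel expected). Dusp6 and Etv4 shared 96 against 76.1 (1.26, in 7 of 8), and Spry4 and Etv5 75 against 63.9 (1.17, in 7 of 8). Dusp6 and Etv5, the most alike over blocks, shared 423 against 444 (0.95), with a median percentile of 92.3 among all genes paired with Dusp6. The remaining pairs ranged from 0.90 for Spry1 and Spry2 (59 against 65.3) to 1.62 for Spry4 and Etv4, which rests on 20 pixels against 12.3. In blocks of 2 by 2 pixels Etv4 and Etv5 gave 1.10, Dusp6 and Etv4 1.05 and Spry4 and Etv5 0.85.

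Pairs of a receptor with a target had lower ratios. Fgfr3 shared 264 pixels with Etv5 against 462 expected (0.57, above 1 in 0 of 11 libraries) and 525 with Dusp6 against 848 (0.62, in 1 of 11), with median percentiles of 7.30 and 10.7 among all genes paired with Fgfr3. Fgfr2 gave 0.75 with Etv5 and 0.73 with Dusp6. Fgfr1 gave 0.84 and 0.87, at median percentiles of 59.3 and 48.5 among all genes paired with it. The 18 ratios of a receptor with a target ran from 0.57 to 0.95, and the difference from the 15 target pairs, which ran from 0.90 to 1.62, was not tested. In E10 50 µm replicate 1 the 831 counts of Fgfr3 lay in 378 of 859 tissue pixels, while the 35 of Etv4 lay in 33. The part of such gathering in the ratios was not tested, so they do not show that a receptor and a target avoid each other.

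**Figure D5:**
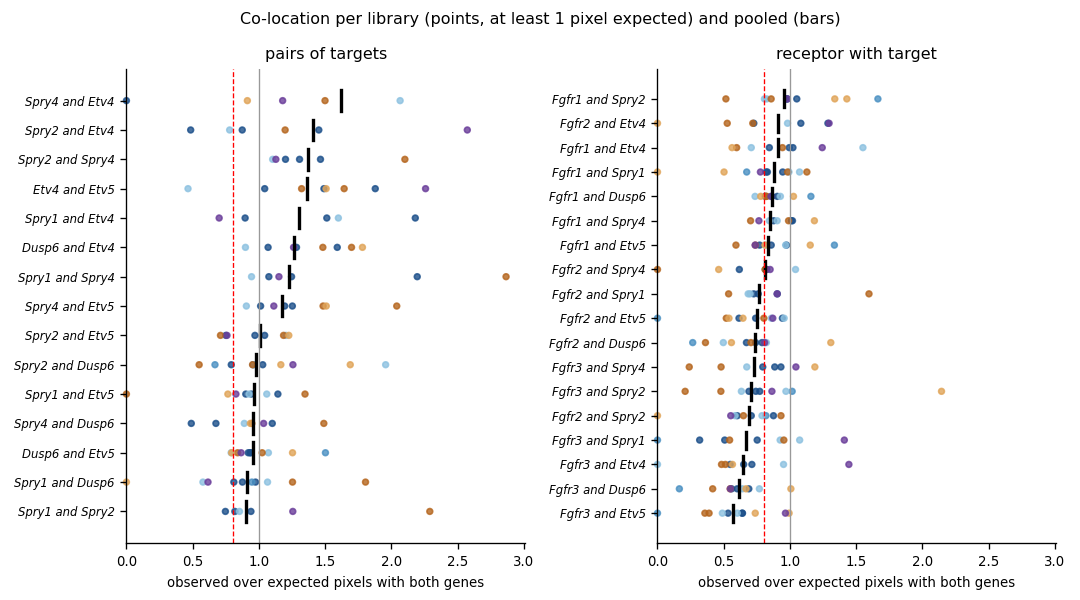
Observed over expected number of pixels with both genes (horizontal axis) for the 15 pairs of targets (left) and the 18 pairs of a receptor with a target (right). Points are libraries with at least 1 pixel expected, coloured by group as in the plot of receptor preference. Black bars are pooled ratios and the grey line is 1. The red dashed line is 0.80, the median over targets and libraries of the median over all genes, which is not pooled. Pooled ratios run from 0.90 to 1.62 for target pairs and from 0.57 to 0.95 for receptor and target.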

How the data were processed

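The data were deposited by the authors as count tables, 1 per library, with pixels in rows and genes in columns, and the values are whole-number counts. The submitters' processing notes name CASAVA 1.8.2 and GRCh38, a human build, without a role; the aligner, the strand setting and the use of molecular identifiers are not given in the sources used here. Counting intervals and floors cover counting error only.

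Pixels whose total reached 0.1 of the library's 95th percentile were kept as tissue. Their counts were added up for each library, or for its marker-high and remaining pixels, and tested with edgeR 4.0.16 (robust quasi-likelihood, TMM factors, filter on low counts), with p-values adjusted over all genes tested. Stage and width were fitted on 11 libraries with 5 residual degrees of freedom; tissue fits had the library as a block. Ratios within a library had 0.5 counts added to each sum. DESeq2 1.42.0, no filter, other pixel choices and leaving out each library were alternatives. The scripts were tested on simulated data. For E11 against E10 over both widths, 10% of genes changed by a log2 fold change of 1 were recovered, and 61% of those changed by 2. For neural progenitor pixels these shares were 77% and 94%. A stage comparison without a call therefore does not show that a member was unchanged. Replicate libraries of a group differed by more than sampling noise, at chi-square per degree of freedom of 24.6 to 70.0. The 4 antibody libraries were not used.

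Named were the 10 members, at most 4 pathway genes called in each direction (1 such gene is not reported here), and the 3 genes most like each member. Members and lists were chosen with earlier results of these data known. The 10 against 25 µm difference and the E10 against E11 test within tissues were chosen after values were seen.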

Additional observations from a re-analysis of the deposited data

Results flagged for a closer look

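In midbrain-hindbrain border pixels, 2 receptors moved in opposite directions at the 2 stages, each library of a stage on 1 side of 0. The log2 ratio of Fgfr1 in marker-high over remaining pixels was -0.20 on average at E10 (-0.33 to -0.12, n = 3 libraries) and 0.41 at E11 (0.05 to 1.02, n = 4), a difference of 0.61 (two-sided exact permutation p = 0.0571, the smallest that 3 against 4 libraries can give, adjusted 0.296 over 40 tests). For Fgfr2 the means were -0.48 (-0.71 to -0.23) and 0.75 (0.41 to 1.17), a difference of 1.23 (exact permutation p = 0.0571, adjusted 0.296). Neither passed the correction. The 3 E10 libraries have 50 µm pixels and the 4 E11 libraries 25 or 10 µm, so that stage and pixel width cannot be told apart. In E11 10 µm replicate 2 the list had so few counts that the marker-high pixels were under 10% of the tissue pixels, so its values carry the least weight.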

How the results depend on the processing

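Counts of the 10 members called moved as follows. For E11 against E10 over both widths, 0 became 2 with DESeq2 and 2 with no filter on low counts, at 10 µm 0 became 1 with no filter, and for E12 against E10 0 became 1 with DESeq2 and 2 with no filter. In neural progenitor pixels 3 became 5 with no filter, 4 with the top 20% or each pixel alone and 2 with the top 5%, in neuron pixels 6 became 4 with DESeq2 or the top 20% and 5 with the top 5%, each pixel alone, all 11 libraries or without the most abundant marker, and in midbrain-hindbrain border pixels 0 became 1 with no filter and 2 with each pixel alone. In mesenchyme 3 became 1 with the top 5% of pixels, 2 with DESeq2, no filter or each pixel alone and 4 with the top 20%, in cartilage 1 became 2 with DESeq2 and 2 with the top 20%, and in epithelium 2 became 1 with DESeq2. In heart muscle 2 became 0 with DESeq2, 3 with no filter, 1 with the top 20% and 1 with each pixel alone, and in muscle and somite 1 became 2 with no filter and 0 with the top 5%, the top 20% or without the most abundant marker. The 4 receptor differences became 9 with the top 20% of pixels. The likeness of Dusp6 and Etv5 fell from 0.435 to 0.264 with blocks of 3 by 3 pixels. The cause of these changes was not tested.

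Leaving out each library gave 0 to 1 members for E11 against E10 over both widths, 0 to 2 at 10 µm and for E12, 0 to 1 for E11 10 against 25 µm, 3 to 4 in neural progenitor, 4 to 6 in neuron, 0 to 1 in midbrain-hindbrain border, 2 to 3 in mesenchyme, 1 to 2 in epithelium and 1 to 2 in heart muscle pixels, and 4 to 8 receptor differences (8 without E11 10 µm replicate 2). Co-location of the targets was 1.00 to 1.05 without 1 library and 0.90 in blocks of 2 by 2 pixels, below 1. No called member changed sign under any alternative, but the sign of 21 of 60 uncalled stage or width results and of 32 of 62 uncalled tissue results did, Fgfr3 for E11 against E10 over both widths ranging from -0.94 to 0.37 and Spry4 from -0.12 to 2.30. Over all genes calls moved as well: E11 against E10 over both widths ranged from 144 to 1988 genes around 656, E11 against E10 at 10 µm from 190 to 1835 around 608 and at 25 µm from 17 to 671 around 83, E12 against E10 from 98 to 1328 around 390, E10 10 against 50 µm from 0 to 731 around 20 and E11 10 against 25 µm from 33 to 870 around 378. Among tissue lists midbrain-hindbrain border ranged from 50 to 1193 genes around 139, muscle and somite from 89 to 1760 around 533, cartilage from 643 to 1675 around 1094 and epithelium from 450 to 1288 around 722, and the other 4 stayed within 1.5 times their count.

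Only the E11 groups share replicate numbers in the labels. Their deviations correlated at 0.0766 over 18233 genes, so the numbers were not taken as pairs, and the replicate block gave 0 members called and 297 genes against 378. Depth limits Etv4, Spry4 and Spry1 most: E10 25 µm held 3 counts each of Etv4 and Spry4, and E11 10 µm replicate 2 held 2 of Spry4 and 10 of Spry1.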
